A study of Mus musculus with 3 samples.

Results

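The genes described here are 10 regulators of alternative splicing known for their roles in muscle: Rbm20, Rbm24, Celf1, Celf2, Mbnl1, Mbnl2, Rbfox1, Rbfox2, Ptbp1 and Ptbp2. They were chosen by gene name in the deposited transcript annotation, and each name led to 1 locus of the expression table, so that 10 of its 48626 loci, and 10 of its 20117 protein-coding loci, are described. None of the 10 loci joins transcripts of another named gene. The RNA came from heart ventricle of C57BL/6 mice (C57BL/6 J in the study's methods), taken from embryos at stages E10.5 and E13.5 (days after conception) and from the adult at 8 weeks, with no allele, agent or treatment named for any stage. Each stage was sequenced as 1 library of total RNA, and the number of hearts in a library and the sex of the mice are not given in the sources used here. The series was made to find long noncoding RNAs of the developing ventricle. With 1 library per stage, no difference below has a replicate check, an error or a p-value.

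Proteins of this kind bind short motifs in introns and exons of pre-mRNA and make a nearby exon more or less likely to be kept. A widely described feature of the heart after birth is that Celf proteins decline while Mbnl proteins increase, and the 2 families act against each other on many of the same exons. Rbfox proteins bind UGCAUG and, in general, promote an exon when bound in the intron after it and repress it when bound before it. Ptbp proteins bind pyrimidine-rich tracts and mostly repress exons. Rbm20 is the heart factor that keeps exons out of the mRNA of the giant sarcomere protein titin, and mutations in it cause dilated cardiomyopathy. Rbm24 promotes inclusion of muscle exons.

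Several of these regulators carry small alternative exons of their own, and these are shown first because the transcripts of the ventricle differ in them. Rbfox1 and Rbfox2 each have an exon of 40 nt, described for brain, and an exon of 43 nt, described for muscle, of which a transcript generally uses 1. In the lines below the exon is in capitals and the 20 flanking intron bases on each side are in lower case, read on the transcribed strand from the GRCm38.p6 RefSeq assembly (the assembly of mm10). The Rbfox1 exons lie at chr16:7363865-7363904 (40 nt) and chr16:7369801-7369843 (43 nt), both on the plus strand. The Rbfox2 exons lie at chr15:77094451-77094490 (40 nt) and chr15:77091812-77091854 (43 nt), both on the minus strand. All of these exons are coding exons of GENCODE M21.
Rbfox1 40-nt exon: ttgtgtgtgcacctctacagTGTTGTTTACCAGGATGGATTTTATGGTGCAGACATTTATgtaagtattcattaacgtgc
Rbfox2 40-nt exon: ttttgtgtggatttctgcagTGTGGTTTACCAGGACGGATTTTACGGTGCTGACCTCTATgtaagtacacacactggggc
Rbfox1 43-nt exon: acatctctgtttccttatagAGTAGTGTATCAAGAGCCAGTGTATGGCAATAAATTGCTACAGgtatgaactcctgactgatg
Rbfox2 43-nt exon: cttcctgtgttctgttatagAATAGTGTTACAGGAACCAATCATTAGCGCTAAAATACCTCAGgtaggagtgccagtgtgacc

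The 40-nt exons of the paralogs shared 34 of 40 bases (85.0%), whereas the 43-nt exons shared 27 of 43 (62.8%). The merged annotation holds 6 Rbfox1 transcripts assembled from the ventricle reads, and 5 of them used the 43-nt exon and 1 the 40-nt exon. Of the 5 assembled Rbfox2 transcripts, 3 used the 43-nt exon, 1 the 40-nt exon and 1 neither. Among the 6 RefSeq transcripts of Rbfox2 in the same annotation, 4 used the 40-nt exon, 1 the 43-nt exon and 1 neither, and of the 2 RefSeq transcripts of Rbfox1, 1 used the 40-nt exon and 1 the 43-nt exon. No transcript of either gene used both. These are counts of distinct structures in an annotation merged over the 3 libraries, so they carry neither a level nor a stage.

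**Figure D1:**
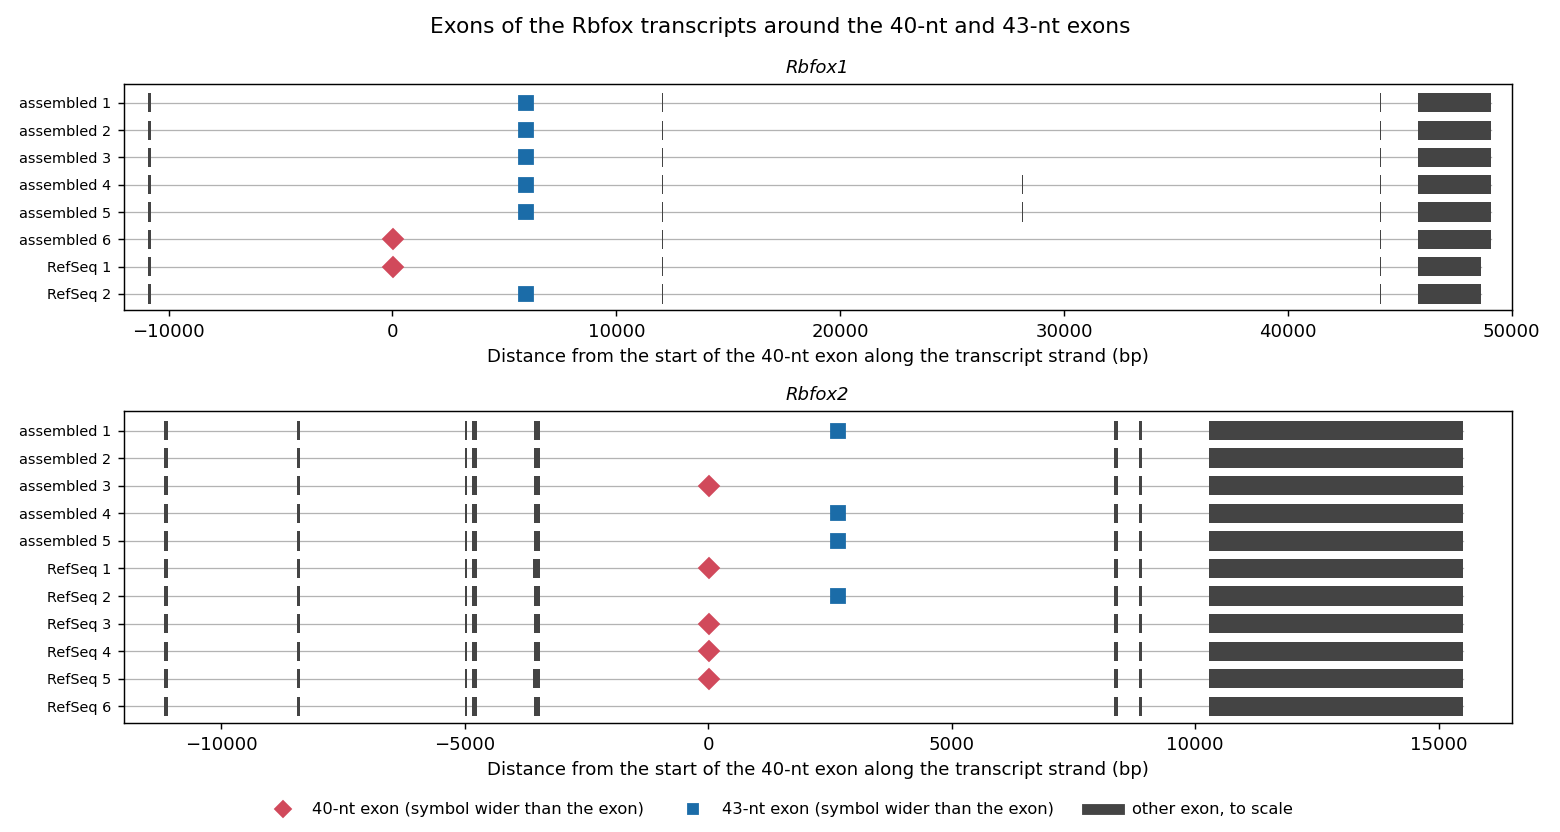
Exons of each Rbfox1 and Rbfox2 transcript of the merged annotation, drawn by distance in bp from the start of the 40-nt exon along the transcript strand, 1 transcript per row. Diamonds mark the 40-nt exon and squares the 43-nt exon: 5 of 6 assembled Rbfox1 transcripts and 3 of 5 assembled Rbfox2 transcripts carry the 43-nt exon.

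The intron windows beside the 40-nt exons are shown because they hold the DNA form of the Rbfox motif, TGCATG, in capitals. For Rbfox1 it lay in the 100 bases before the exon (chr16:7363765-7363864) and in the 100 bases after it (chr16:7363905-7364004), and for Rbfox2 in the 100 bases before it (chr15:77094491-77094590).
Rbfox1, before the 40-nt exon: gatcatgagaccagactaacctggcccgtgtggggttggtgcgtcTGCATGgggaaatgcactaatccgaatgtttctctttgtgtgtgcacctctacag
Rbfox1, after the 40-nt exon: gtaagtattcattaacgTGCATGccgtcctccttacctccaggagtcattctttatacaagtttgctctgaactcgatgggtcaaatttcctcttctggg
Rbfox2, before the 40-nt exon: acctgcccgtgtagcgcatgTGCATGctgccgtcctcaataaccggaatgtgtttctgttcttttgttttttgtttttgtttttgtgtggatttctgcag

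Ptbp2, the paralog of Ptbp1 known from neurons, has an exon of 34 nt whose skipping, promoted by Ptbp1, is known to expose the mRNA to decay. It lies at chr3:119724612-119724645 on the minus strand, and 2 of 3 assembled Ptbp2 transcripts kept it while 1 skipped it. The exon of the same length in Ptbp1 lies at chr10:79862014-79862047 on the plus strand and shared 26 of 34 bases (76.5%) with the Ptbp2 exon. None of the 3 Ptbp1 transcripts of the annotation skipped it, but only 1 of these was assembled from the reads, so skipping in the ventricle cannot be judged. The 100 intron bases before the Ptbp2 exon (chr3:119724646-119724745) are shown with their match to CTCTCT, a pyrimidine motif of Ptbp proteins, in capitals.
Ptbp2 34-nt exon: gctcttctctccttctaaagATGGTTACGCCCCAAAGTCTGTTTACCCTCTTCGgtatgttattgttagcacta
Ptbp1 34-nt exon: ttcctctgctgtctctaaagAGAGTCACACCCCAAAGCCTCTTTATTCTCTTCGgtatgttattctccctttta
Ptbp2, before the 34-nt exon: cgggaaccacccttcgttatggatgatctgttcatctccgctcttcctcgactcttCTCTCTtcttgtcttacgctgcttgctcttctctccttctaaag

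The Mbnl genes share an exon of 54 nt that is known to favour nuclear localisation of the protein and to be used more in fetal than in adult tissue. It lies at chr3:60614683-60614736 in Mbnl1 and at chr14:120395712-120395765 in Mbnl2, both on the plus strand, and the 2 exons shared 46 of 54 bases (85.2%). Assembled transcripts with and without it were found for both genes, 2 and 2 for Mbnl1, and 1 and 2 for Mbnl2. Mbnl1 also has an exon of 36 nt (chr3:60621423-60621458), present in 5 of its 6 RefSeq transcripts and skipped in all 4 assembled from the ventricle.
Mbnl1 54-nt exon: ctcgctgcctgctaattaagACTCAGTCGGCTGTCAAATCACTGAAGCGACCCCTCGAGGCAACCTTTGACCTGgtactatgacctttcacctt
Mbnl2 54-nt exon: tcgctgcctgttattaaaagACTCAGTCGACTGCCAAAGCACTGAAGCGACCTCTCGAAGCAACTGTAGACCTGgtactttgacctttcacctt
Mbnl1 36-nt exon: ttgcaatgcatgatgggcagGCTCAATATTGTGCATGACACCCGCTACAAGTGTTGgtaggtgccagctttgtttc

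Levels are given as FPKM, the number of sequenced fragments of a gene divided by its exon length and by the size of the library, which lets genes be compared within a library. A difference between stages is that of log2(FPKM + 1), a scale that makes changes of low genes look smaller than they are, and it was counted as higher or lower past 1 on that scale. The background is the 12569 protein-coding loci that reached 1 FPKM in any library. On this scale the libraries are shifted against each other: the median difference of these loci was 0.17 from E10.5 to E13.5, -0.50 from E13.5 to the adult and -0.40 from E10.5 to the adult, and with median-of-ratios scaling these were 0.04, -0.03 and -0.06. The deposited columns sum to 601115 FPKM for E10.5, 808971 FPKM for E13.5 and 443471 FPKM for the adult. The most common low value of FPKM times length, over unspliced loci, was taken as 1 fragment. By this, 1 FPKM over 1 kb stands for about 13, 22 and 13 fragments. These numbers are approximate, since that value is blurred and need not be 1 fragment, and the precision of counting cannot be given from them.

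In the ventricle, Mbnl1, Mbnl2, Rbfox1 and Celf2 were higher in the adult than at E13.5, and Ptbp1 and Ptbp2 were lower. From E10.5 to the adult, Rbm20, Mbnl1 and Rbfox1 were higher by more than 1 on the log2 scale, while Celf1, Ptbp1 and Ptbp2 were lower. No regulator passed 1 between E10.5 and E13.5. All 10 were at 1 FPKM or more at E13.5 and in the adult, and 9 at E10.5, where Rbfox1 stood at 0.865 FPKM. Since this is bulk tissue, fewer cells of a type and less RNA per cell cannot be told apart in any of these differences.

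**Figure D2:**
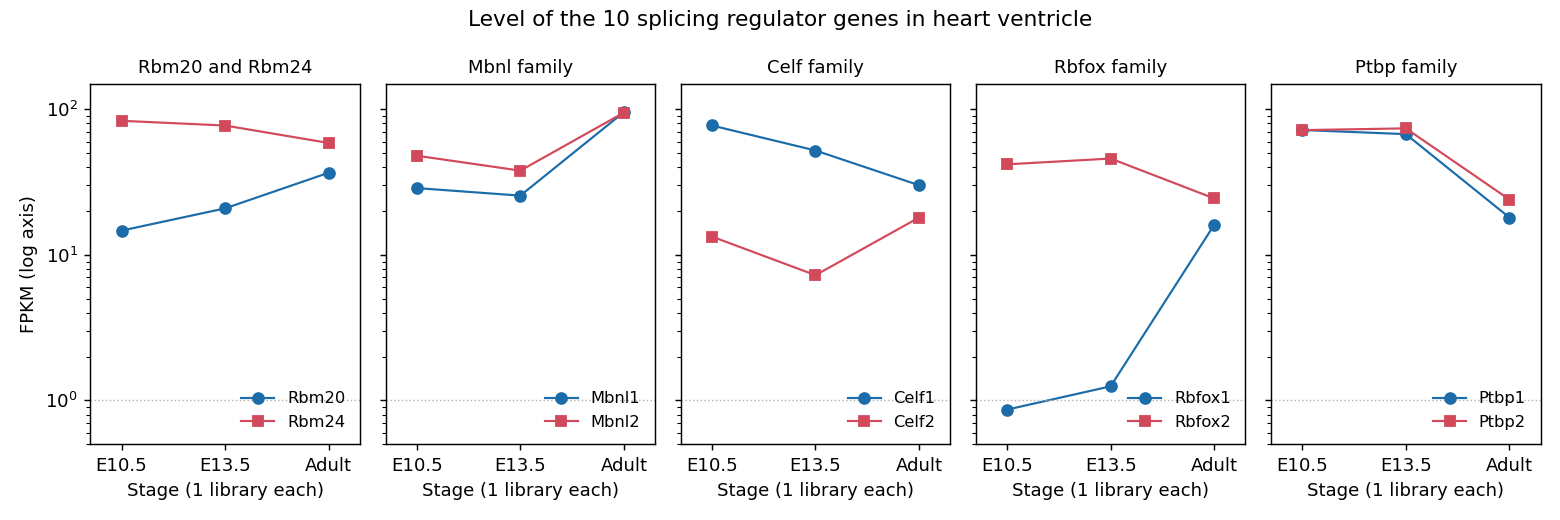
FPKM of the 10 regulators (log axis) against stage (E10.5, E13.5, adult), 1 library per stage, in panels by family, with a dotted line at 1 FPKM. Rbfox1 climbs from 0.865 to 16.1 FPKM, both Mbnl genes end near 95 FPKM, and both Ptbp genes drop from about 72 FPKM at E10.5 to 18.0 and 24.0 FPKM in the adult.

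Of the Mbnl genes, which encode zinc finger proteins bound and depleted by expanded CUG repeats in myotonic dystrophy, Mbnl1 measured 28.8 FPKM at E10.5, 25.5 FPKM at E13.5 and 95.6 FPKM in the adult. Mbnl2 measured 48.0, 37.9 and 94.9 FPKM. Both embryonic libraries were thus low and the adult library was high for each gene. The difference from E13.5 to the adult was 1.87 for Mbnl1 and 1.30 for Mbnl2 on the log2(FPKM + 1) scale, and that from E10.5 was 1.70 and 0.97. Mbnl2 was the higher of the pair at E10.5, with a ratio to Mbnl1 of 1.67, and in the adult the 2 were nearly equal at 0.992. In the adult Mbnl1 and Mbnl2 held ranks 1 and 2 among the 10 regulators, compared with 7 and 5 at E10.5, and both reached the 96.5th percentile of expressed protein-coding loci.

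The Celf genes, which encode proteins that bind GU-rich RNA, did not move together. Celf1 measured 77.4 FPKM at E10.5, 52.1 FPKM at E13.5 and 30.1 FPKM in the adult, so that the 3 libraries descended in order of age, and the difference from E10.5 to the adult was -1.33. With median-of-ratios scaling this difference was -0.93, which is short of 1. Celf2 measured 13.4, 7.25 and 18.0 FPKM, lowest at E13.5, and its differences were -0.80 from E10.5 to E13.5 and 1.21 from E13.5 to the adult. Celf1 exceeded Celf2 by 5.80-fold at E10.5, 7.18-fold at E13.5 and 1.67-fold in the adult. The sum of both genes was 90.7, 59.3 and 48.1 FPKM.

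Celf2 is also expressed in endothelium and leukocytes, whose markers are therefore given beside it. The 6 endothelial markers summed to 290.4 FPKM at E10.5, 213.8 FPKM at E13.5 and 283.5 FPKM in the adult, with 2 of 6 lower past 1 from E10.5 to E13.5 and 2 of 6 higher from E13.5 to the adult, and none was listed at 0. The list did not move as one: Kdr, the main VEGF receptor gene, measured 48.1, 20.3 and 61.9 FPKM, lowest at E13.5 as Celf2 was, while Pecam1 measured 46.5, 47.6 and 72.8 FPKM. The receptor genes Tie1 (30.8, 28.9 and 18.8 FPKM) and Tek (46.5, 40.4 and 25.0 FPKM) were lowest in the adult. The 6 leukocyte markers summed to 3.76, 12.7 and 71.2 FPKM, and 4 of 6 were higher past 1 in the adult than at E13.5. Both embryonic libraries listed the T cell gene Cd3e at 0, and the B cell gene Cd79a was listed at 0 at E10.5. The part of either cell type in the level of Celf2 was not tested.

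Rbfox1 had the widest range of the 10. It measured 0.865 FPKM at E10.5, 1.25 FPKM at E13.5 and 16.1 FPKM in the adult. Judged over the shortest transcript of the locus and by the approximate depth given above, these values stand for about 47, 114 and 877 fragments. The adult library stood 18.6-fold above E10.5 in FPKM, and the difference on the log2(FPKM + 1) scale was 3.20, and 2.93 from E13.5. Its paralog Rbfox2 measured 41.9, 45.9 and 24.4 FPKM, with a difference of -0.75 from E10.5 to the adult. Rbfox2 exceeded Rbfox1 by 48.4-fold at E10.5, 36.7-fold at E13.5 and 1.52-fold in the adult. The summed level of the 2 genes was 42.7, 47.1 and 40.5 FPKM as deposited, and it depends on the scaling. Among expressed protein-coding loci Rbfox1 moved from the 9.15th percentile at E10.5 to the 74.4th in the adult.

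Because Rbfox1 is abundant in neurons and skeletal muscle, markers of both were read beside it. The 7 neuronal markers summed to 10.1 FPKM at E10.5, 16.1 FPKM at E13.5 and 5.44 FPKM in the adult, and most of the sum came from 2 genes that differed in pattern. The neuronal tubulin gene Tubb3 measured 7.90, 9.49 and 1.72 FPKM, a difference of -1.71 from E10.5 to the adult, and Stmn2, a neuronal regulator of microtubules, measured 0.743, 4.66 and 3.53 FPKM, a difference of 1.38. The other 5 neuronal markers were at 1.38 FPKM or less in every library. The 7 markers of fast skeletal muscle summed to 36.4, 13.9 and 2.14 FPKM, and without Mylpf, the largest of them, to 6.51, 5.25 and 0.676 FPKM. The part of either cell type in the level of Rbfox1 was not tested. None of the neuronal markers was listed at 0, and of the skeletal markers Myh2 was listed at 0 at E13.5.

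Ptbp1, a broadly expressed repressor of exons, measured 72.0 FPKM at E10.5, 67.5 FPKM at E13.5 and 18.0 FPKM in the adult. Ptbp2 measured 71.9, 73.9 and 24.0 FPKM. The embryonic libraries were close to each other for both genes and the adult library was low, with differences from E13.5 to the adult of -1.85 for Ptbp1 and -1.58 for Ptbp2. The ratio of Ptbp2 to Ptbp1 was 0.998, 1.10 and 1.33, and their sum was 143.9, 141.4 and 42.0 FPKM. Ptbp2 is known as a neuronal gene, and the neuronal marker Tubb3 was also lowest in the adult while Stmn2 was lowest at E10.5, at the levels given above. The part of neurons in the level of Ptbp2 was not tested.

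Rbm20 measured 14.7 FPKM at E10.5, 20.9 FPKM at E13.5 and 36.6 FPKM in the adult, ascending in order of age, with a difference of 1.26 from E10.5 to the adult. Rbm24 was the most abundant of the 10 in both embryonic libraries at 83.3 and 77.3 FPKM, and measured 58.7 FPKM in the adult. Its difference from E13.5 to the adult was -0.39 on the deposited scale and 0.17 when scaled by median of ratios, so that its direction depends on the scaling. Rbm24 exceeded Rbm20 by 5.68-fold at E10.5, 3.71-fold at E13.5 and 1.60-fold in the adult. As deposited, the sum of the 2 was between 95.3 and 98.2 FPKM in each library. That sum depends on the scaling, since median of ratios divides E10.5, E13.5 and the adult by 1.07, 1.193 and 0.804. Both genes are known for expression in heart muscle, and the 7 cardiomyocyte markers summed to 7108, 9874 and 13520 FPKM, the highest in the adult. Without Tnni3, the largest of them in the adult, the sums were 6576, 8738 and 9459 FPKM. The list did not move as one: from E10.5 to the adult 4 of 7 were higher past 1 and 1 was lower. The lower one was Nkx2-5, at 46.8, 61.1 and 9.38 FPKM. The part of the share of cardiomyocytes in the level of Rbm20 was not tested.

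**Figure D3:**
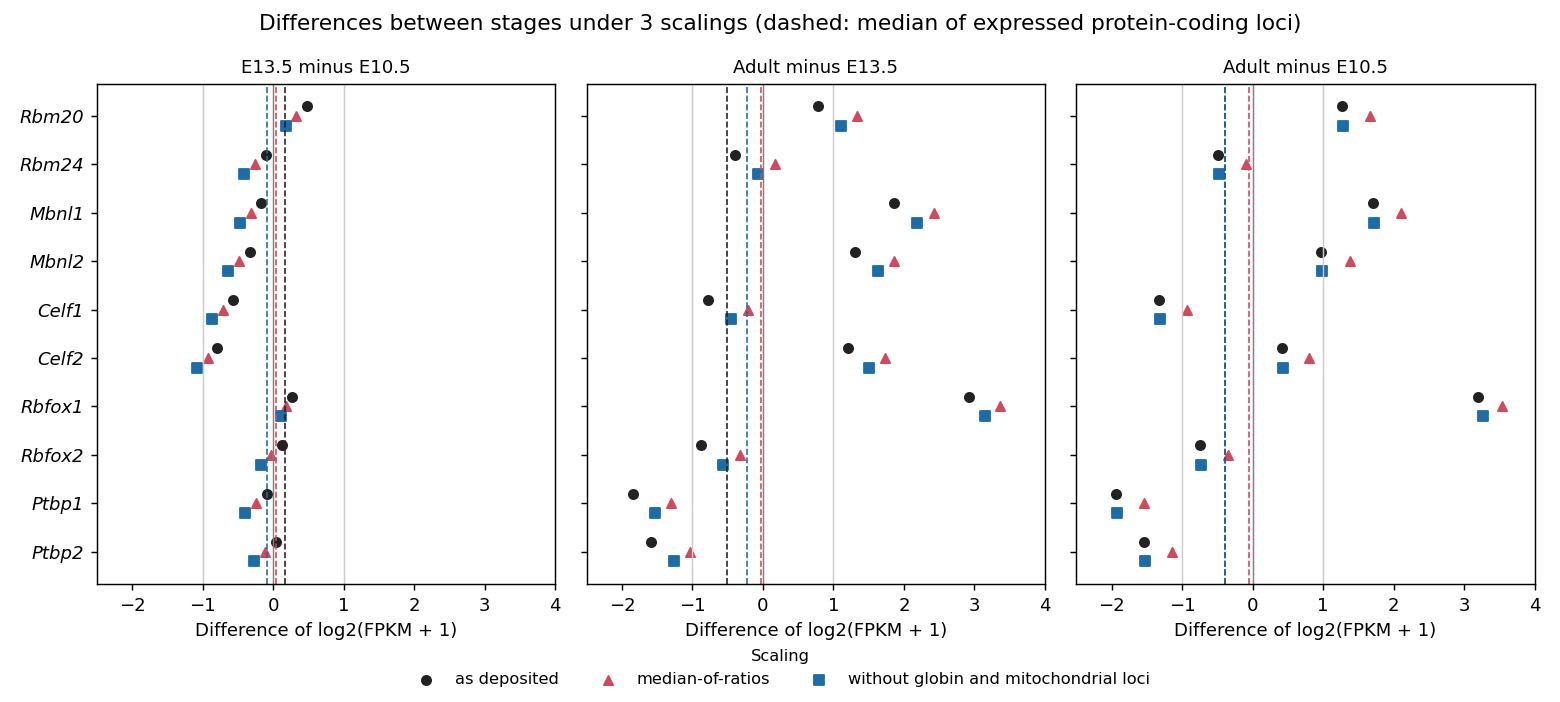
Difference of log2(FPKM + 1) of each regulator between 2 stages, with 1 library per stage, under the deposited scaling (circles), median-of-ratios scaling (triangles) and scaling without globin and mitochondrial loci (squares); dashed lines give the median of expressed protein-coding loci under each scaling and grey lines mark -1 and 1. Rbfox1, Mbnl1 and both Ptbp genes stay past 1 in the adult under all 3 scalings, whereas Rbm24 changes sign between E13.5 and the adult.

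Between E10.5 and E13.5, 0 of 10 regulators were higher past 1 and 0 were lower, beside 5.89% and 4.85% of the background loci. The largest difference was that of Celf2 at -0.80, and it reached -1.08 when the libraries were rescaled without globin and mitochondrial loci. The small differences of Rbfox2 (0.13) and Ptbp2 (0.04) turned negative under both rescalings. From E13.5 to the adult, 4 of 10 were higher and 2 of 10 lower, beside 13.0% and 32.1% of the background. From E10.5 to the adult, 3 of 10 were higher and 3 of 10 lower, beside 14.8% and 27.3%. The background split depends on the scaling. With median-of-ratios scaling it was 20.8% higher and 18.9% lower for E13.5 to the adult, where the regulators counted 5 higher, Rbm20 being added, and 2 lower. For E10.5 to the adult it was then 20% and 18.4%, where they counted 4 higher, Mbnl2 being added, and 2 lower, Celf1 being lost. For E10.5 to E13.5 it was 4.18% and 6.29%, with 0 regulators on either side. Without globin and mitochondrial loci the split for E13.5 to the adult was 17.2% and 23.6%, and that for E10.5 to E13.5 was 3.36% and 8.64%. The median difference of the 10 was 0.20 from E13.5 to the adult, where that of the background was -0.50, and -0.05 from E10.5 to the adult, where it was -0.40.

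The summed level of the 10 genes was 452.1 FPKM for E10.5, 409.5 FPKM for E13.5 and 416.4 FPKM for the adult as deposited. Scaled by median of ratios it was 422.5, 343.2 and 517.9, so that the order of the sums depends on the scaling. The make-up of the sum within a library does not depend on it. Mbnl1 and Mbnl2 took 6.36% and 10.6% of the sum at E10.5 and 23.0% and 22.8% in the adult. Ptbp1 and Ptbp2 took 15.9% each at E10.5 and 4.33% and 5.76% in the adult. Celf1 went from 17.1% to 7.22%, and Rbm20 from 3.25% to 8.80%. The span from the lowest to the highest of the 10 was 96.4-fold at E10.5, 61.9-fold at E13.5 and 5.94-fold in the adult, since Rbfox1, rank 10 in every library, was nearer to the others in the adult. Several neighbours in the order of levels were almost level: Ptbp1 and Ptbp2 at E10.5, Mbnl1 and Mbnl2 in the adult, and Celf2 and Ptbp1 at 18.0 FPKM each in the adult.

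**Figure D4:**
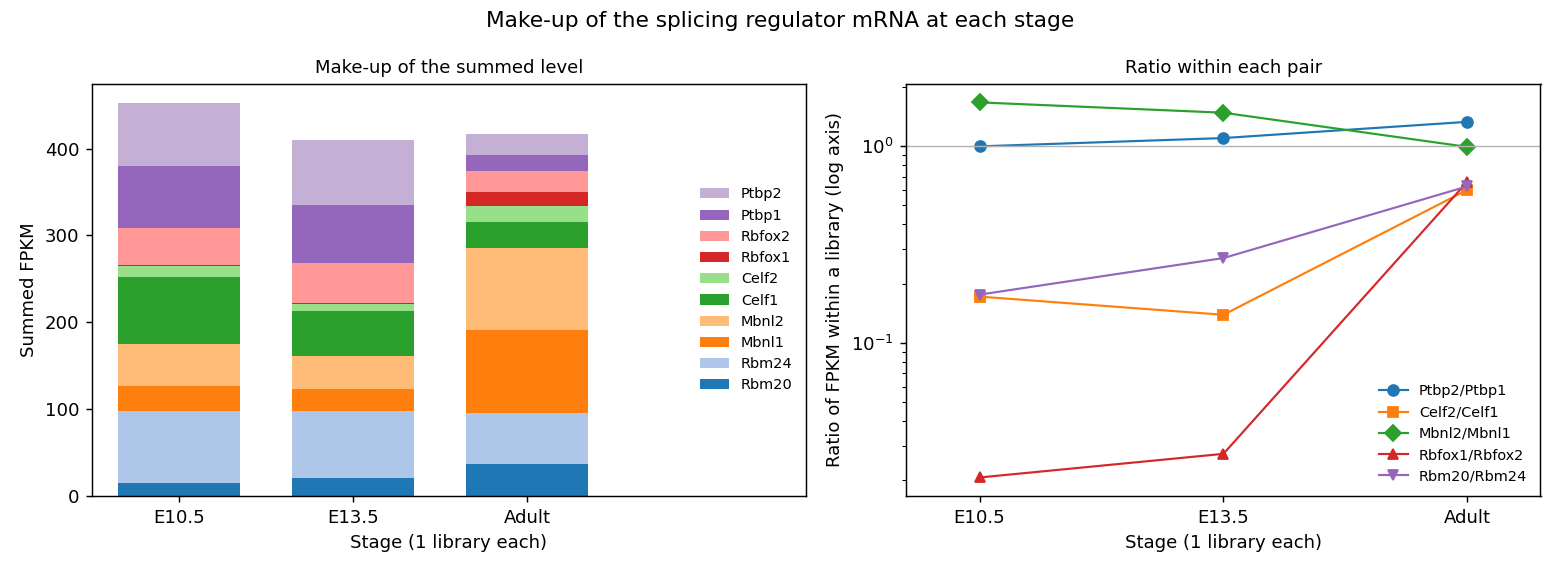
Left, stacked FPKM of the 10 regulators in each library (linear axis from 0). Right, ratio of FPKM within each pair of genes per library (log axis, grey line at 1): Rbfox1/Rbfox2, Celf2/Celf1 and Rbm20/Rbm24 lie between 0.600 and 0.660 in the adult after starting at 0.0207, 0.172 and 0.176.

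A list of 10 genes, called paralogs here, holds other members of these families and also Rbpms and Rbpms2, which belong to none of them. Of the 10 listed, 6 reached 1 FPKM in a library. From E10.5 to the adult 0 of these were higher past 1 and 2 were lower, beside 14.8% and 27.3% of the background, with a median difference of -0.80. Mbnl3, described mainly in embryonic tissue and in muscle precursors, measured 11.3, 4.04 and 0.534 FPKM and was lower in the adult by a difference of -3.00, opposite in sign to Mbnl1 and Mbnl2. Rbpms2, an RNA-binding protein of heart and smooth muscle, measured 29.6, 15.0 and 6.92 FPKM, a difference of -1.95. Celf4, the largest positive difference among these 6, was at 0.276, 1.41 and 0.360 FPKM, a difference of 0.09.

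General splicing factors were mostly lower in the adult library. Of 13 SR proteins, which bind exonic enhancers, none was higher past 1 and 11 were lower when the adult was set against E10.5, with a median difference of -1.66. Of 21 hnRNP proteins 0 were higher and 14 lower, with a median of -1.20, and of 20 core spliceosome components 0 were higher and 19 lower, with a median of -1.54. Of the background loci, 14.8% were higher and 27.3% lower in this comparison, with a median difference of -0.40. With median-of-ratios scaling, 8 SR proteins, 9 hnRNP proteins and 13 core components were lower, beside 18.4% of the background. The adult differences of Ptbp1 (-1.94) and Ptbp2 (-1.54) lay among those of these lists. Those of Mbnl1, Mbnl2, Rbfox1, Rbm20 and, at 0.41, Celf2 lay above every expressed member of the 3 lists.

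Among single genes of these lists, the SR proteins with the largest negative differences were Srsf7 (108, 123 and 21.5 FPKM) and Srsf9 (27.9, 34.2 and 5.63 FPKM), at -2.28 and -2.12. Among hnRNP proteins they were Hnrnpa0 (54.2, 43.9 and 6.79 FPKM) at -2.83 and Hnrnpl (124, 88.9 and 25.4 FPKM) at -2.25. Hnrnph3 was the one hnRNP gene with a positive difference as deposited, 0.14, at 5.23, 7.22 and 5.87 FPKM. Of the core components, the Sm protein genes Snrpd1 (54.1, 98.6 and 11.7 FPKM) and Snrpb (106, 165 and 24.6 FPKM) differed most, at -2.12 and -2.07.

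**Figure D5:**
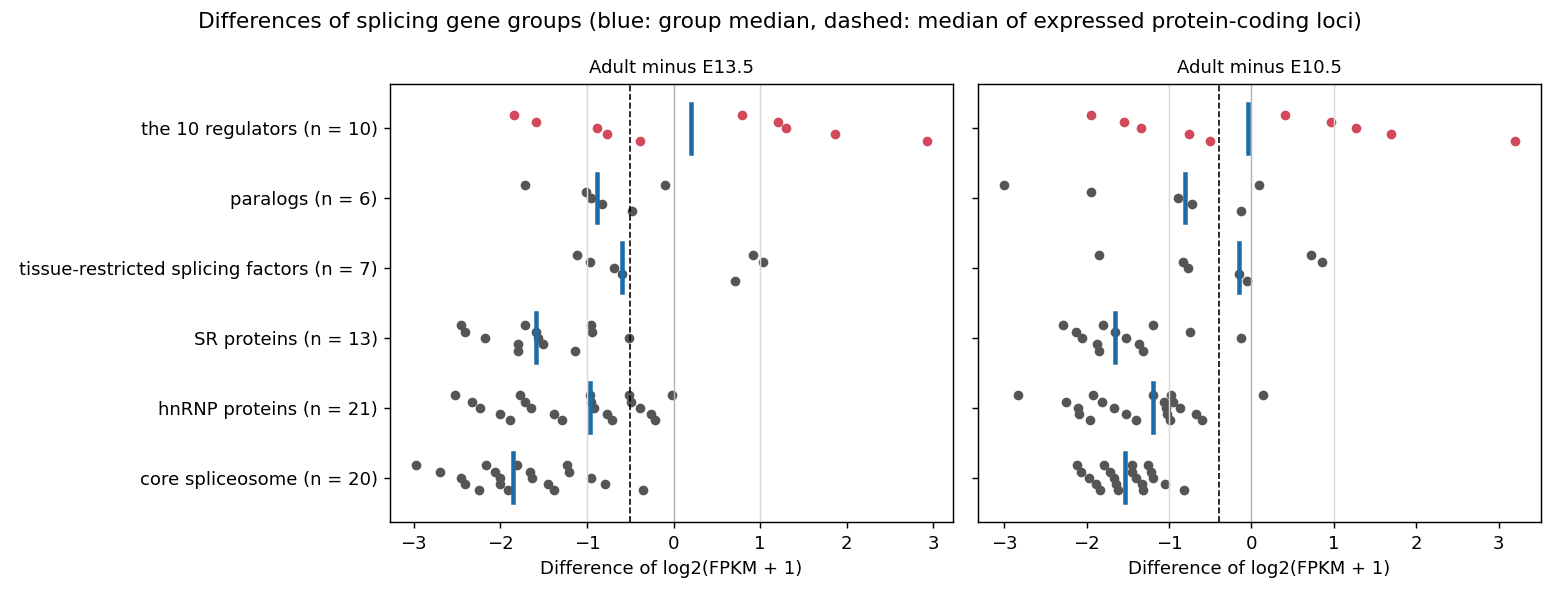
Difference of log2(FPKM + 1), as deposited, of each gene at 1 FPKM or more in a library, for the 10 regulators and 5 lists of splicing genes, from E13.5 to the adult (left) and from E10.5 to the adult (right). Blue bars are list medians and the dashed line is the median of expressed protein-coding loci; the SR, hnRNP and core spliceosome medians lie between -1.20 and -1.66 on the right, where that of the 10 regulators is -0.05.

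Of 13 other tissue-restricted splicing factors, 7 reached 1 FPKM in a library. By the same count 0 were higher and 1 lower, beside 14.8% and 27.3% of the background. Their median difference was -0.14, and 0.27 with median-of-ratios scaling. Nova1, a neuronal factor, measured 4.46, 1.43 and 0.512 FPKM, a difference of -1.85. Elavl2, also neuronal, measured 1.09, 0.793 and 0.182 FPKM, a difference of -0.82. The largest positive differences were those of Rbm47 (0.85), at 0.232, 0.182 and 1.23 FPKM, and of Srrm4 (0.72), the activator of neuronal microexons, at 0.396, 0.129 and 1.30 FPKM. All of these stayed below 5 FPKM.

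A list of 23 genes whose pre-mRNA is known to be spliced by these regulators was read for its gene level, which says nothing of which exons are used. Of its 22 genes at 1 FPKM or more in a library, the adult showed 12 at a higher level and 4 at a lower level by this count, against E10.5, with a median difference of 1.11. The shares of the background loci for the same comparison were 14.8% higher and 27.3% lower. Tnnt2, cardiac troponin T, a classic substrate of Celf and Mbnl proteins, measured 626, 1522 and 3148 FPKM, a difference of 2.33. Pdlim3, a protein of the sarcomeric Z-disc, measured 71.1, 247 and 6.41 FPKM, a difference of -3.28, and Tnnt3, fast skeletal troponin T, measured 4.21, 3.47 and 0.563 FPKM, a difference of -1.74. Ttn, the best known substrate of Rbm20, was singled out after its values were seen: it was at 428 and 46.8 FPKM in the embryo and listed at 0 in the adult, where a 0 can be a failed estimate, and it is counted among the 4 lower.

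Markers were also used to check the tissue label. Cardiomyocyte genes were abundant in every library, with Tnnt2 at 626 FPKM or more. Of 4 genes that mark atrium in the adult heart, Myl7 measured 2453, 1935 and 0.719 FPKM and Myl4 2164, 2440 and 1.42 FPKM. Sln measured 21.3, 7.11 and 0.898 FPKM and Nr2f2 5.85, 4.03 and 3.88 FPKM, both highest at E10.5. A part of atrial tissue in the embryonic libraries was not tested. Myl7 and Myl4 are known to be made throughout the early heart tube, so that they do not separate atrium from ventricle in the embryo. The 6 fibroblast markers summed to 127.1, 320.3 and 436.1 FPKM, of which Dcn made up 350.7 FPKM in the adult, and without it the sums were 77.5, 244.4 and 85.4 FPKM. From E13.5 to the adult 1 of these 6 was higher past 1 and 3 were lower. The 6 smooth muscle and pericyte markers summed to 124.4, 204.1 and 296.7 FPKM, of which Rgs5 made up 239.8 FPKM in the adult, and without it the sums were 114.5, 157.0 and 56.9 FPKM. None of these markers was listed at 0, and their part in the levels of the regulators was not tested.

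For the 3 regulators with the widest range, the most similar of 11914 protein-coding loci were found by the distance between their log2(FPKM + 1) values in the 3 libraries, each centred on its own mean. Closest to Rbfox1 were Fmo2, Rapgef4 and C5ar1, with distances of 0.054, 0.068 and 0.079. Fmo2 is a flavin monooxygenase and measured 0.696, 1.06 and 15.3 FPKM, while C5ar1 was nearer to 0 in the embryo, at 0.0722, 0.339 and 9.62 FPKM. Closest to Ptbp1 were Thyn1, Nudcd1 and Vars, with distances of 0.022, 0.024 and 0.028, and Vars, which encodes a valyl-tRNA synthetase, measured 21.5, 20.5 and 4.80 FPKM. Closest to Mbnl1 were Isg20, Mapk10 and Ly6e, with distances of 0.022, 0.022 and 0.047, and Ly6e, a membrane-anchored protein, measured 19.7, 17.0 and 67.8 FPKM. Isg20 (0.411, 0.256 and 3.665 FPKM) and Mapk10 (0.152, 0.042 and 2.82 FPKM) were far lower than Mbnl1. At such levels the pseudocount of 1 shrinks the differences, so their small distances do not mean a like fold change. A likeness over 3 libraries is a description.

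Noncoding transcripts lay beside 4 of the loci. A transcript of 2 exons on the minus strand (chr19:53673000-53677099) had no gene name in the annotation and is called Lnc431 in the study. It began 207 bp from the RefSeq 5′ end of Rbm20 on the other strand. It measured 3.19, 3.98 and 1.37 FPKM, a difference of -0.82 from E10.5 to the adult, where Rbm20 differed by 1.26. The 1 Rbm20 transcript assembled from the reads began 114880 bp downstream of that RefSeq end. Within the span of Celf2 and on its strand, the single-exon noncoding gene 5031426D15Rik (chr2:6922702-6928722) measured 5.80, 0.905 and 6.55 FPKM and was lowest at E13.5, as Celf2 was. E130317F20Rik (chr10:79851377-79854971) overlaps the 5′ end of Ptbp1 on the other strand and measured 2.48, 2.51 and 0.812 FPKM. BC005764, named outside the rule because some of its transcripts are coding, overlaps the 3′ part of Ptbp1 on the other strand and measured 0.658, 4.64 and 0.261 FPKM. The kit keeps strand, but the strand setting of the counting is not given in the sources used here, so that reads of Ptbp1 and of these partners cannot be told apart with certainty, and all were below Ptbp1 by at least an order of magnitude. A further 2 noncoding loci, 1700123O21Rik within Rbfox1 and Bc1 over Ptbp1, were listed at 0 in every library.

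The merged annotation holds between 2 transcripts (Rbm20) and 14 transcripts (Celf2) per gene, of which between 1 and 9 were assembled from the reads. Celf1 had 9 assembled transcripts, all with junctions that no RefSeq transcript of the annotation combines, from 3 start sites. For Rbm20 the 1 assembled transcript began at chr19:53792186, 114880 bp downstream of the RefSeq start and 1122 bp from the nearest GENCODE start. For Rbfox1, assembled transcripts began at 4 sites, and the site at chr16:7285169 lay 60859 bp from the nearest GENCODE start. Assembled transcripts were often longer than RefSeq ones, as for Ptbp2 with 13516 nt against 3364 nt, and for Mbnl2 with 9666 nt against 4553 nt. Since FPKM is divided by length, the length taken for these genes bears on their level.

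Exons skipped by another transcript of the same gene numbered 22 in 9 of the 10 genes, with none in Rbm20. Of these, 20 match an exon of GENCODE M21 exactly and 18 hold coding sequence, 8 of them with a length that is a multiple of 3. Rbfox1 had the most, 5 exons, among them an exon of 93 nt, known to encode part of the RNA-binding domain, kept in 5 of 6 assembled transcripts. Rbfox2 and Mbnl1 had 4 each. Among these are the Mbnl exons of 95 nt, which shared 81 of 95 bases (85.3%) between Mbnl1 and Mbnl2. Ptbp1 had 1, an exon of 78 nt at chr10:79860117-79860194 that the 1 assembled transcript skipped.

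The 200 intron bases on each side of the 22 exons were searched on the transcribed strand for TGCATG, the Rbfox motif, for CTCTCT, a Ptbp motif, and for TGTGTG, a motif of Celf proteins (CTCTCT and TGTGTG can overlap copies of themselves). TGCATG lay on at least 1 side of 12 of the 22 exons (54.5%), in 9 genes, and on at least 1 side of 14.2% of 163240 internal exons of RefSeq protein-coding transcripts. It lay before 7 exons (31.8%, beside 6.92% of all) and after 8 (36.4%, beside 7.90% of all). CTCTCT lay on a side of 3 exons (13.6%, beside 24.3% of all), and TGTGTG on a side of 7 (31.8%, beside 27.5% of all). The exons of paralogs, such as the 40-nt exons of the Rbfox genes, share sequence and are not independent of each other. The RefSeq exons were not limited to skipped ones, so the 22 exons stand beside a set of a different kind. A match is a description of the letters in the window, not evidence that a protein binds there.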

How the data were processed

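Total RNA of mouse ventricle was made into stranded libraries and sequenced from both ends. Per the study's text and the submitters' processing notes, reads were aligned to mm10 by the authors with TopHat2 and Bowtie, and transcripts were built with Cufflinks, once guided by known transcripts and once not. Other tool versions, the options and the strand setting are not given in the sources used here. The deposited values are FPKM per merged locus, 1 column per library, beside a transcript annotation merged over the libraries. Read counts were not used here. The 10 regulators and all gene lists were chosen with earlier results of these data known.

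Each regulator was found by gene name in the annotation. Differences are of log2(FPKM + 1), with a pseudocount of 1, and were counted past 1 beside the 12569 protein-coding loci at 1 FPKM or more in a library. Named genes were all 10 regulators and, of each other list of splicing genes and their substrates, up to 2 with the largest positive and 2 with the largest negative difference from E10.5 to the adult, leaving out loci that join genes or are listed at 0. A gene that this rule would name is not reported here. Marker lists were given by sums and counts, and the markers named beside them were chosen after their values were seen. Noncoding loci were named where they overlap a regulator or start within 3000 bp of it on the other strand. With 1 library per stage no test was run. Alternatives were other pseudocounts (0.1 and 0.5), scalings, filters and a threshold of 2. Of the introns of RefSeq coding transcripts in the annotation, 98.9% began with GT and ended with AG in GRCm38.p6, the assembly from which sequences were read. Python 3.11.15 was used with numpy 2.4.6, pandas 2.3.3 and matplotlib 3.10.9.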

Additional observations from a re-analysis of the deposited data

How the results depend on the processing

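No paired analysis was possible because no stage was sequenced more than once, and for the same reason no library could be left out. Of 165 values of the regulators' differences, ratios and counts under an alternative, 158 moved by no more than 1.5-fold. Of 120 differences of single regulators, 5 changed sign, namely those of Rbfox2 and Ptbp2 from E10.5 to E13.5 under both rescalings and that of Rbm24 from E13.5 to the adult when scaled by median of ratios, and the cause was not tested. With a pseudocount of 0.1 the difference of Rbfox1 was 3.58 from E13.5 to the adult and 4.07 from E10.5, since its embryonic levels are near the pseudocount. Rescaled without globin and mitochondrial loci, 1 regulator (Celf2) was lower at E13.5 than at E10.5. With a threshold of 2, the adult had 1 regulator higher and 0 lower when set against E13.5, and again 1 higher and 0 lower when set against E10.5, the higher gene being Rbfox1 in both. At that threshold 4.41% of the background loci were higher and 9.88% lower against E13.5, and 5.59% and 8.10% against E10.5. Among the lists, the median of the paralogs was -0.10 without a filter on low values, and with a pseudocount of 0.1 the tissue-restricted factors counted 2 higher and 3 lower. The libraries' depth is approximate, and 1 library per stage limits every comparison.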
